A study of Mus musculus with 9 samples.

Results

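Primary tumours of the mouse mammary carcinoma lines 66cl4 and 4T1, both of which metastasise, were compared with primary tumours of their non-metastatic sister line 67NR, to describe the genes that differed from 67NR in the same direction in each of the 2 lines. The comparison used all 9 arrays of the study, 3 titled 66cl4 and 3 titled 4T1, weighted equally by line, against 3 titled 67NR. Every host was a female BALB/c mouse of 7 to 9 weeks that had received 1000000 viable cells of its line, and all 3 lines carried the CMVLUC suffix in their labels. Each array held total RNA from areas of 1 primary tumour captured by laser from sections, 15 days after injection. Each group is a single line, so what both metastatic lines have in common cannot be told apart from what is particular to 67NR. The p-values measure the spread between mice of a line, not between lines of a kind.

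The 3 lines were isolated from the same spontaneous mammary carcinoma of a BALB/c-related mouse. 67NR grows at the site of injection and does not spread, 66cl4 forms lung metastases, and 4T1 colonises lung, liver, bone and brain. The study compared their primary tumours with regard to the epithelial-mesenchymal transition, in which epithelial cells give up junctions and keratins and take up mesenchymal genes. A captured tumour area also holds vessels, fibroblasts and immune cells, so a signal is the sum over tumour and host cells.

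The values are deposited log2 signals of probe sets and have no detection call. The highest of 27 control probe sets for bacterial transcripts on each array served as its background, and a gene above it on no array of a line is given there as a bound ("at least"). Precision is set by the 3 arrays per line, since signals carry no count of molecules. The spiked hybridization controls had a mean log2 signal of 11.16 ± 0.30 on 67NR, 10.86 ± 0.23 on 66cl4 and 10.46 ± 0.22 on 4T1 arrays (SD, n = 3). All 67NR arrays carried higher scan file numbers than the other arrays, so scan order and 67NR cannot be told apart. Both measures were therefore entered as covariates in turn, and the counts they left are given beside each group of genes, hybridization controls first.

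Over 18193 genes, 681 (3.74%) were called higher and 769 (4.23%) lower than 67NR in both lines. A gene was called when the larger of its p-values in 66cl4 minus 67NR and 4T1 minus 67NR passed 0.05 after Benjamini-Hochberg adjustment in limma, with both differences on the same side of 0. On the level of probe sets, 1184 of 45037 (2.63%) were called higher and 1340 (2.98%) lower. With both log2 differences at least 1 in size, 227 genes were higher and 353 lower. All 6 arrays of the metastatic lines lay above all 3 of 67NR for 1668 genes (9.17%) and below them for 1797 (9.88%). Taken singly, 4414 genes (24.3%) differed between 66cl4 and 67NR and 5048 (27.7%) between 4T1 and 67NR, and 395 of these differed in opposite directions. These comparisons share the 67NR arrays, so a chance deviation of 67NR enters both. Entering the scan file number left 216 genes higher and 213 lower, and the hybridization controls left 211 and 228. Without 67NR replicate 2 they were 420 and 525, and 712 and 883 probe sets. Of the 182 called genes that the rules and lists below cover, 97 (53.3%) lost their call with the hybridization controls, 56.6% with the scan file number and 14 to 45 genes without any 1 array.

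**Figure D1:**
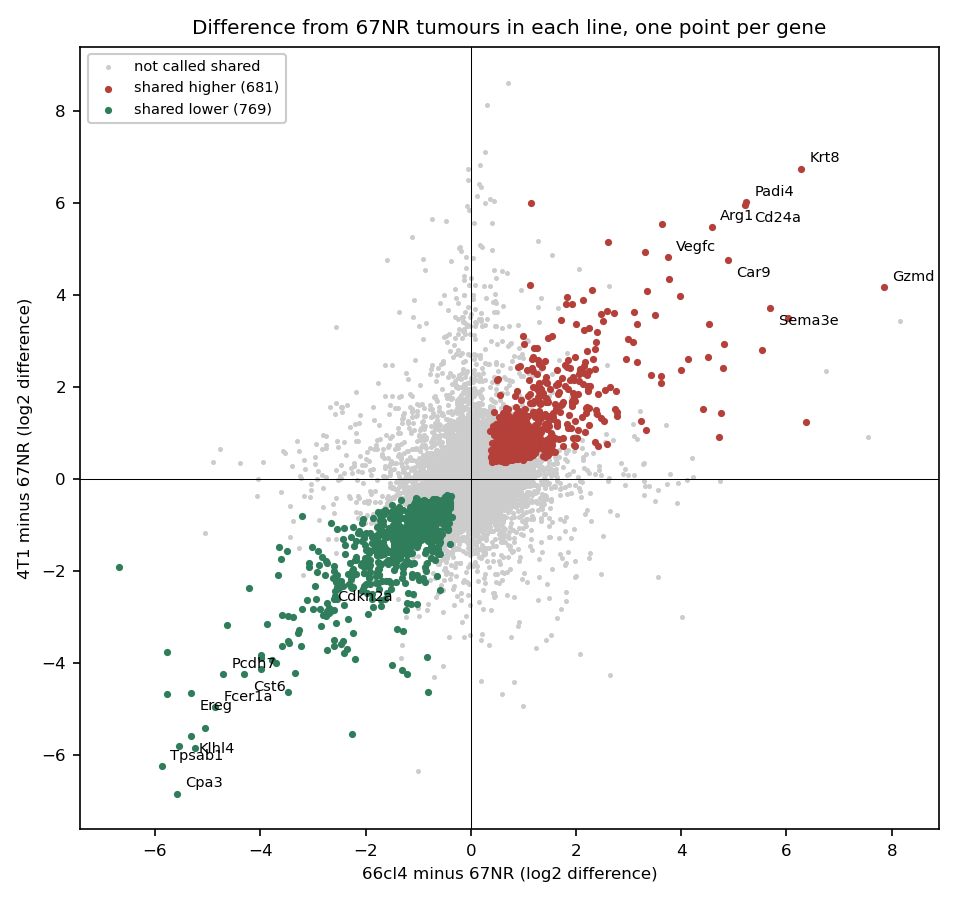
Log2 difference from 67NR in 66cl4 tumours (x axis) and 4T1 tumours (y axis), 1 point per gene over 18193 genes; red points are the 681 genes called higher and green points the 769 called lower in both lines. Krt8, at 6.27 and 6.75, lies farthest into the upper right, and Tpsab1 (-5.87 and -6.23) and Cpa3 (-5.59 and -6.83) lie farthest into the lower left. Both axes share the 67NR arrays, and their part in any tilt of the cloud along the diagonal was not tested.

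Among the called genes the smaller of the 2 differences had a median of 0.79 for those higher and -0.92 for those lower, on the log2 scale. Not above background on any 67NR array were 44 of the genes called higher, and 115 of the genes called lower were not above background on any array of either metastatic line. The size of the shared difference itself differed between the lines for 435 of the 1450 called genes, by limma's contrast of 4T1 with 66cl4. Of these, 122 higher genes were farther from 67NR in 4T1 and 113 in 66cl4, and 109 lower genes were farther in 4T1 and 91 in 66cl4. Of 1223 further probe sets of called genes that were above background on some array, 1086 differed in the same direction as the chosen probe set in both lines and 523 were called themselves.

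The gene farthest above 67NR in both lines was Krt8, which encodes keratin 8 of simple epithelia. Its log2 signals were 6.70, 6.94 and 6.58 in the 67NR tumours, 13.08, 13.17 and 12.78 in the 66cl4 tumours and 13.47, 13.29 and 13.69 in the 4T1 tumours. All 6 metastatic tumours lay far above the 67NR tumours with no overlap, which the choice of the leading genes required. The differences were 6.27 ± 0.15 in 66cl4 and 6.75 ± 0.15 in 4T1 (SE, limma joint adjusted p = 6.21e-08), which is 77.4-fold for the smaller. Both further Krt8 probe sets were higher by 6.27 to 7.03, although probe sets of Krt8 may also read its near-identical relatives. Its partner gene Krt18, encoding keratin 18, did not share this pattern. Krt18 was at 5.5, 5.0 and 5.91 in 66cl4 and 13.50, 13.31 and 13.34 in 4T1 tumours, against 4.22, 5.29 and 4.80 in 67NR, and its joint test missed the threshold (adjusted p = 0.263).

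Padi4, encoding a peptidylarginine deiminase that citrullinates histones and is abundant in neutrophils, was above background on no 67NR array. Its log2 signals were 3.93, 3.49 and 3.93 in 67NR, 9.34, 9.77 and 7.94 in 66cl4 and 10.06, 9.74 and 9.59 in 4T1 tumours. Padi4 was thus at least 16.9-fold higher in 66cl4 and at least 29.0-fold higher in 4T1 (limma joint adjusted p = 5e-05). No other neutrophil marker of 21 measured was called in either direction, and the mean log2 signal of the list was 5.95 to 6.24 in 67NR, 6.11 to 7.01 in 66cl4 and 7.25 to 7.58 in 4T1 tumours. The part of neutrophils in the Padi4 signal was not tested.

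Cd24a, a glycosylated surface protein of luminal epithelium and many leukocytes, had log2 signals of 5.64 to 6.42 in 67NR, 10.85 to 11.59 in 66cl4 and 11.65 to 12.26 in 4T1 tumours. It was higher by 5.22 ± 0.25 and 5.95 ± 0.25 (SE, limma joint adjusted p = 4.46e-06), and its other 2 probe sets were called higher too. Pkp2, encoding the desmosomal plaque protein plakophilin 2, was at least 8.59-fold higher in 66cl4 and at least 8.54-fold higher in 4T1. Of 3 further Pkp2 probe sets, 2 were called higher. Cxadr, an epithelial adhesion protein that coxsackie and adenoviruses use as receptor, was at least 4.07-fold higher in 66cl4 and at least 15.2-fold in 4T1 (limma joint adjusted p = 1.16e-05). Further Cxadr probe sets were called higher by 1.76 and 3.15 and by 1.03 and 1.70. One above background on all 9 arrays, 67NR included, was called higher by only 0.54 and 0.95. Another, above background on no array, differed by 0.15 and 0.17.

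The remaining genes of the upper end belonged to several other functions. Sfmbt2, a Polycomb-group gene, was at least 5.35-fold higher in 66cl4 and at least 8.03-fold in 4T1. Golm2, encoding a Golgi membrane protein, was at 4.38 to 4.74 in 67NR and 7.85 to 8.24 over both other lines, at least 8.49-fold and 8.93-fold higher, although another Golm2 probe set at background showed no such difference. Ak4, a mitochondrial adenylate kinase, was at least 6.23-fold and 10.5-fold higher on its brightest probe set. Another probe set was called higher as well, and the remaining 3 differed by no more than 0.20 in size. For Dynap, at 3.48 to 3.84 in 67NR and 5.85 to 9.14 in the other tumours, the bounds were 9.29-fold and 4.18-fold, and its call ended with either technical covariate.

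Gzmd and Gzme, near-identical granzyme genes whose probe sets may read each other, were also among the 15 farthest above 67NR. Gzmd was at 3.39, 3.05 and 4.03 in 67NR, 12.59, 11.91 and 9.54 in 66cl4 and 7.57, 6.22 and 9.18 in 4T1 tumours. The 4T1 tumours spread over a wide range, and lay closer to 67NR than the 66cl4 tumours did. The bounds were at least 84.7-fold in 66cl4 and 6.57-fold in 4T1 for Gzmd, and 42.6-fold and 7.37-fold for Gzme. The shared calls of Gzmd (limma joint adjusted p = 0.0156) and Gzme (0.0172) ended with either technical covariate. They also ended without 67NR replicate 2 (0.0693 and 0.0781), that of Gzmd without 67NR replicate 1 (0.0555) and that of Gzme without 4T1 replicate 3 (0.0608). No called T or NK cell marker was higher than 67NR.

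**Figure D2:**
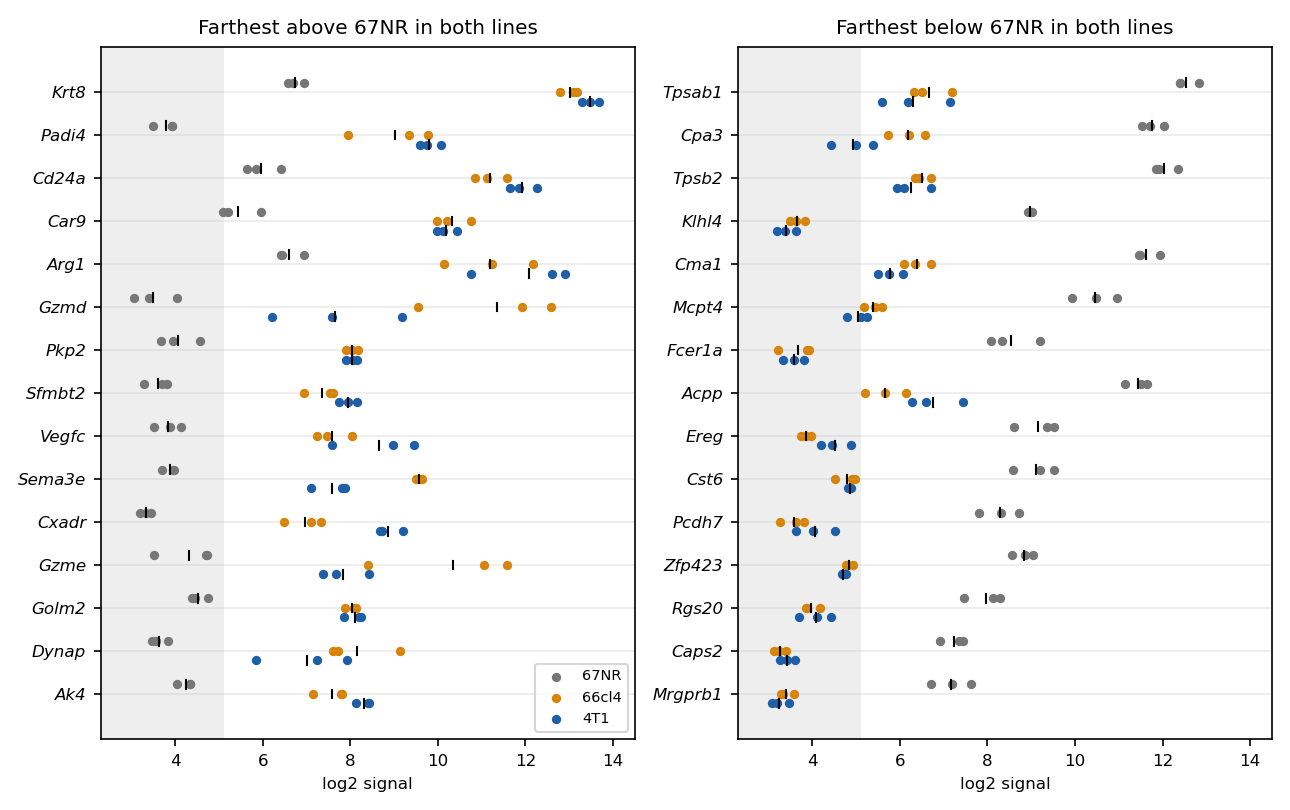
Log2 signal (x axis) on each array for the 15 genes farthest above (left) and the 15 farthest below 67NR (right) in both lines; points are mice, black ticks are means of 3 mice, colours are lines, and the grey band reaches up to the highest background control. In every gene shown the 67NR points lie apart from all 6 others, which the choice of these genes required. Klhl4, at 8.93 to 9.01 in 67NR, falls into the band in all 6 metastatic tumours.

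Genes of mast cells, the tissue cells that store proteases and histamine and respond through the IgE receptor and Kit, made up much of the lower end. Of 22 measured mast cell markers 11 were called lower in both lines and 0 higher, beside 4.23% of all genes called lower. The list's median difference was -1.58, beside -0.01 over all genes. In bulk tissue fewer cells of a type and less RNA per cell cannot be told apart. The mean log2 signal over the 22 markers was 8.17 to 8.41 in 67NR, 6.02 to 6.21 in 66cl4 and 5.95 to 6.31 in 4T1 tumours. All 6 metastatic tumours lay below all 67NR tumours for 12 of the 22 and above them for 1, beside 9.88% and 9.17% of all genes. In the fits that left out 1 array 0 to 1 marker was called higher. The count called lower was 11 in each of those fits. It was 10 and 11 with the hybridization controls and the scan file number as covariates. Ms4a2, another chain of the IgE receptor, was the member that lost its call with the controls.

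Tpsab1, encoding a mast cell tryptase, had log2 signals of 12.39, 12.39 and 12.84 in 67NR, 6.32, 7.19 and 6.5 in 66cl4 and 7.14, 5.60 and 6.19 in 4T1 tumours. It fell by 5.87 ± 0.36 in 66cl4 and by 6.23 ± 0.36 in 4T1 (SE, limma joint adjusted p = 1.37e-05). Cpa3, the mast cell carboxypeptidase gene, was at 11.52, 11.72 and 12.04 in 67NR, 5.73, 6.58 and 6.21 in 66cl4 and 5.38, 4.42 and 5.0 in 4T1 tumours, where 1 of 3 arrays was above background. Neither gene overlapped between 67NR and the other tumours, which the choice of the leading genes required. The tryptase gene Tpsb2 and the chymase genes Cma1 and Mcpt4 fell by 5.06 to 5.85 in either line, and probe sets of these related proteases may read more than 1 of them. Called genes of the IgE receptor and of mast cell identity fell as well, and list members that were not called are not named here. Fcer1a, the ligand-binding chain of that receptor, was at 8.07 to 9.19 in 67NR and above background in no other tumour, at least 12.3-fold lower in 66cl4 and 11.8-fold in 4T1. Mrgprb1, a receptor for cationic secretagogues, was at least 4.81-fold and 4.60-fold lower. Kit, the receptor for stem cell factor, fell by 2.58 and 2.53, the transcription factor gene Gata2 by 1.93 and 2.15, and the vesicular monoamine transporter gene Slc18a2 was at least 1.78-fold and 1.71-fold lower. Kitl, which encodes the ligand of Kit and is made by stroma and tumour cells, was at 11.91, 12.10 and 12.06 in 67NR, 10.11, 9.73 and 10.01 in 66cl4 and 10.47, 8.24 and 10.09 in 4T1 tumours. Its shared call (limma joint adjusted p = 0.0249) ended with the hybridization controls (0.0680) and with the scan file number (0.0881). Without any 1 of the 67NR or 66cl4 arrays the call of Kitl ended as well (0.0662 to 0.0934). Its other 3 probe sets were called lower, by 1.22 to 2.33 in size.

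The promoter window of Cpa3 is shown because Gata2 fell in the same tumours and 4 of the 9 called mast cell genes with a window in the RefSeq promoter table hold the GATA motif AGATAA on either strand. That motif occurs in 11.2% of the table's 32851 windows, which are 300 bases long and mostly upstream of a gene's start. The window lies on the minus strand at chr3:20242132-20242431 of GRCm38.p6, capitals mark AGATAA, and a match describes the letters only.
Cpa3: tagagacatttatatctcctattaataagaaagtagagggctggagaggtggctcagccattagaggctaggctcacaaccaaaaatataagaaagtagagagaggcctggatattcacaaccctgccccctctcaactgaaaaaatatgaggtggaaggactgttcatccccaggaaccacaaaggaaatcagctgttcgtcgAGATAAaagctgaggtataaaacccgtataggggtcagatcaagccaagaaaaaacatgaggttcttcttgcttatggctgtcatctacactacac

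Other genes at the lower end were not mast cell markers. Klhl4, a kelch-repeat gene, was at 8.93, 8.99 and 9.01 in 67NR and at 3.19 to 3.84 in all 6 other tumours, at least 16.8-fold lower in 66cl4 and 16.1-fold in 4T1 (limma joint adjusted p = 6.21e-08). Ereg, encoding epiregulin, a ligand of the epidermal growth factor receptor family, was at 8.61, 9.37 and 9.51 in 67NR and above background in no other tumour, at least 19.1-fold and 18.3-fold lower. Cst6, encoding the cysteine protease inhibitor cystatin E/M, was at 8.59, 9.20 and 9.52 in 67NR, 4.97, 4.91 and 4.51 in 66cl4 and 4.88, 4.82 and 4.87 in 4T1 tumours. It fell by 4.30 ± 0.21 in 66cl4 (SE), where 1 of 3 tumours was above background, and was at least 17.5-fold lower in 4T1, where none was (limma joint adjusted p = 4.94e-06). Acpp, an acid phosphatase gene, fell by 5.76 in 66cl4 and 4.66 in 4T1. The protocadherin gene Pcdh7 was at least 10.4-fold and 9.92-fold lower, the G-protein regulator Rgs20 at least 8.28-fold and 7.93-fold, and Caps2 at least 5.04-fold and 4.82-fold. A further Rgs20 probe set was called lower (-1.04 and -1.22), while another, above background on 7 arrays, differed by -0.13 and -0.29. Zfp423, a zinc finger transcription factor of stromal and preadipocyte cells, fell by 3.99 ± 0.12 in 66cl4 (SE), where 1 of 3 tumours was above background, and was above background in no 4T1 tumour.

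Part of the genes of cholesterol and fatty acid synthesis were called higher in both lines. The mevalonate pathway turns acetyl-CoA into isoprenoids and sterols, desaturases and elongases shape fatty acids, and the SREBP transcription factors drive both branches when sterols are low. Of 25 measured genes 11 (44.0%) were called higher and 0 lower, beside 3.74% of all genes called higher. The other 14 were not called, and Dhcr7 (0.97 and -0.60), Acss2 (0.90 and -0.11) and Acly (-0.09 and 0.33) had opposite signs in the lines. The list's median difference was 1.07 (0.95 in 66cl4 and 1.16 in 4T1), and 17 of the 25 had all 6 metastatic tumours above all 67NR tumours, beside 9.17% of all genes. The count was 11 with the hybridization controls, 10 with the scan file number and 11 to 13 in the fits without 1 array.

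**Figure D3:**
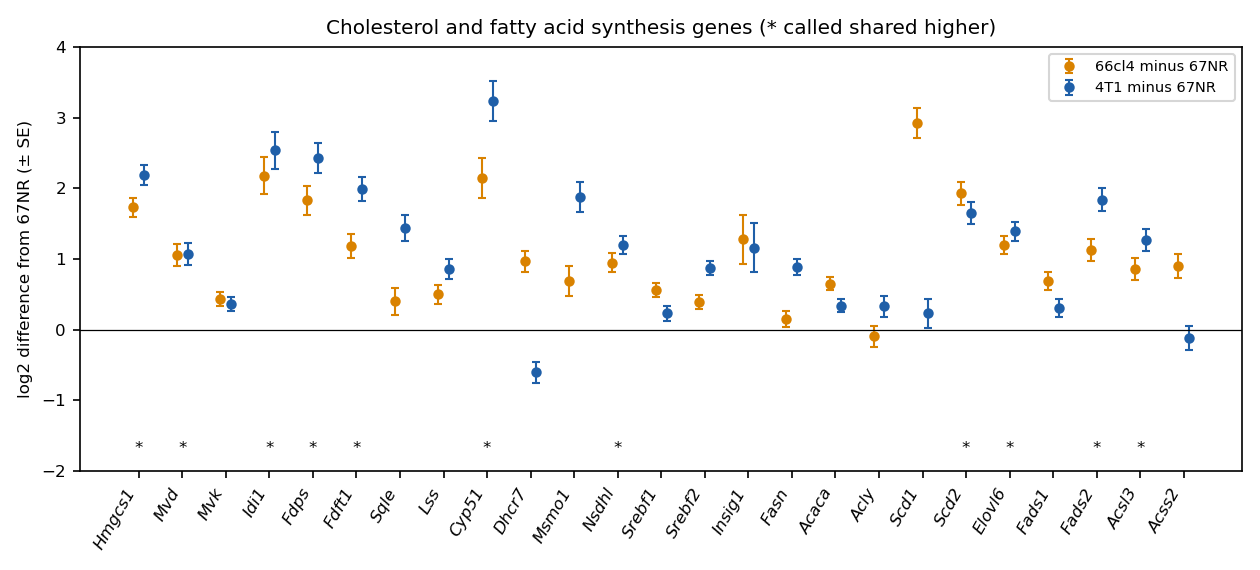
Log2 difference from 67NR (y axis) for the 25 measured genes of cholesterol and fatty acid synthesis, 66cl4 in orange and 4T1 in blue, with the SE of the fit over 3 mice per line; stars mark the 11 genes called higher in both lines. Most points lie above 0 in both colours, Cyp51 reaches 3.24 in 4T1, and Scd1 (2.92 and 0.23) and Dhcr7 (0.97 and -0.60) differ between the lines.

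Hmgcs1, encoding the cytosolic HMG-CoA synthase near the start of the mevalonate pathway, had log2 signals of 8.38, 8.61 and 8.68 in 67NR, 10.06, 10.54 and 10.24 in 66cl4 and 10.68, 10.74 and 10.84 in 4T1 tumours. All 6 metastatic tumours lay above the 67NR tumours, by 1.73 ± 0.14 and 2.19 ± 0.14 (SE, limma joint adjusted p = 8.21e-05), and its 4 other probe sets were called higher too. Among later steps, the isomerase gene Idi1 was at 6.36 to 7.49 in 67NR and 9.09 to 9.75 in the others (2.18 ± 0.26 and 2.54 ± 0.26), and the farnesyl diphosphate synthase gene Fdps was higher by 1.83 ± 0.21 and 2.43 ± 0.21. Fdft1, which makes squalene, was higher by 1.18 and 1.99, and the mevalonate decarboxylase gene Mvd by 1.06 and 1.07. A further Fdft1 probe set was called higher (1.14 and 1.88). Others above background on all 9 arrays were not (-0.08 and 0.07, and -0.15 and -0.08). Of the sterol steps, the demethylase gene Cyp51 was at 4.83, 5.79 and 5.88 in 67NR, 7.37, 8.09 and 7.48 in 66cl4 and 8.53, 8.85 and 8.85 in 4T1 tumours. Its differences were 2.15 ± 0.28 and 3.24 ± 0.28 (SE, limma joint adjusted p = 0.00153). Nsdhl, another sterol enzyme gene, was higher by 0.95 and 1.20, and its call ended with the scan file number (adjusted p = 0.0551).

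Fatty acid genes called were Scd2, a stearoyl-CoA desaturase, Elovl6, an elongase, Fads2, a desaturase of polyunsaturated fatty acids, and the acyl-CoA synthetase gene Acsl3. Scd2 was at 11.01, 10.84 and 10.63 in 67NR, 12.56, 12.66 and 13.06 in 66cl4 and 12.73, 12.30 and 12.42 in 4T1 tumours, higher by 1.93 ± 0.16 and 1.65 ± 0.16 (SE, limma joint adjusted p = 0.000313). The others were higher by 0.86 to 1.84 in either line on their brightest probe sets. A further probe set each of Elovl6, Fads2 and Acsl3 was called higher too. Others of Elovl6 (0.24 and 0.66) and Fads2 (0.17 and 0.47), above background on all 9 arrays, were not called. Nor was an Acsl3 probe set at background. Fasn, the fatty acid synthase gene, missed the joint threshold (0.15 and 0.89, adjusted p = 0.855), as did the regulator genes Srebf1 (0.56 and 0.23, adjusted p = 0.399) and Srebf2 (0.39 and 0.87, adjusted p = 0.0624). Scd1, a close relative of Scd2, was higher by 2.92 ± 0.21 in 66cl4 and differed by 0.23 ± 0.21 in 4T1 (SE).

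The promoter windows of Hmgcs1 and Cyp51 are shown because both genes were high in all 6 metastatic tumours and SREBP and NF-Y recognise known motifs near sterol genes. The sterol motif TCACNCCAC occurred in 1 of the 8 called genes that have a window (1.24% of 32851 RefSeq windows hold it on either strand), and the box CCAAT in 6 of 8 (37.4%). On the plus strand at chr13:119690101-119690400 (Hmgcs1) and the minus strand at chr5:4104648-4104947 (Cyp51) of GRCm38.p6, capitals mark matches to either motif, with CCAAT read as ATTGG where it lies on the other strand. No match says only that the letters are not in the window.
Hmgcs1: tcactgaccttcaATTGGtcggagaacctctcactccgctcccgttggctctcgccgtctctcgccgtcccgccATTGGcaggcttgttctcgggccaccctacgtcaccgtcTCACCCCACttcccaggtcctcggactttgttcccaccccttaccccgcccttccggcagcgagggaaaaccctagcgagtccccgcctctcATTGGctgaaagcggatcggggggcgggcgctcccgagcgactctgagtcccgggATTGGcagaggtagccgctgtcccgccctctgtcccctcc
Cyp51: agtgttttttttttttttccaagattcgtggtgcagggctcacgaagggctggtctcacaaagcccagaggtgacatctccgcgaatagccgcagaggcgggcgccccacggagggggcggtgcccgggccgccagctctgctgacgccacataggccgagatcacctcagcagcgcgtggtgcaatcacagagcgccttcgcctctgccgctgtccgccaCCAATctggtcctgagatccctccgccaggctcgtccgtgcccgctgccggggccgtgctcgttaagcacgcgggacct

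Some genes of hypoxia and glycolysis were higher in both lines. Of 39 measured, 9 (23.1%) were called higher and 2 (5.13%) lower, beside 3.74% and 4.23% of all genes. The list median was 0.16 in 66cl4 and 0.88 in 4T1. Car9, a surface carbonic anhydrase that acidifies the surroundings of hypoxic cells, was at 5.97, 5.21 and 5.10 in 67NR, 10.21, 10.76 and 9.99 in 66cl4 and 9.98, 10.12 and 10.43 in 4T1 tumours. It was far above 67NR in all 6 metastatic tumours, by 4.89 ± 0.25 and 4.75 ± 0.25 (SE, limma joint adjusted p = 8.02e-06). Pdk1, a kinase that keeps pyruvate out of the mitochondria, was higher by 1.76 ± 0.15 and 1.67 ± 0.15, and the glycolytic kinase gene Pgk1 by 0.91 and 1.47. The calls of the lactate dehydrogenase gene Ldha (0.92 and 1.04), the mitophagy gene Bnip3 (1.98 and 2.65), Pfkl (0.93 and 1.39), Pfkp (1.32 and 1.01) and Kdm3a (0.58 and 0.61) ended with either technical covariate, and that of Pgam1 with the scan file number. The list then had 4 genes higher with the hybridization controls and 3 with the scan file number, and 0 lower. The muscle-type phosphofructokinase gene Pfkm (-0.54 and -0.78) was lower while Pfkl and Pfkp were higher, and the hexokinase gene Hk1 (-0.80 and -0.50) was lower, both losing their call with either covariate. The call of Pfkm ended without any 1 of the 67NR or 66cl4 arrays (0.0615 to 0.103) and that of Hk1 without replicate 1 or 2 of 67NR or 4T1 (0.0617 to 0.0996). That of Kdm3a ended without any 1 array but 67NR replicate 1 (0.0519 to 0.131), and that of Pgam1 without 67NR replicate 1 or 2 or 66cl4 replicate 2 (0.0534 to 0.0578). Vegfa, an angiogenic target of hypoxia, was not called (-2.01 in 66cl4 and 0.30 in 4T1).

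The Car9 window is shown because that gene is a known target of hypoxia-inducible factors, whose core motif ACGTG occurred in 5 of the 9 called hypoxia genes and in 19.6% of 32851 RefSeq windows on either strand. The window lies on the plus strand at chr4:43506776-43507075 of GRCm38.p6, and capitals mark the motif, which reads CACGT because it lies on the other strand.
Car9: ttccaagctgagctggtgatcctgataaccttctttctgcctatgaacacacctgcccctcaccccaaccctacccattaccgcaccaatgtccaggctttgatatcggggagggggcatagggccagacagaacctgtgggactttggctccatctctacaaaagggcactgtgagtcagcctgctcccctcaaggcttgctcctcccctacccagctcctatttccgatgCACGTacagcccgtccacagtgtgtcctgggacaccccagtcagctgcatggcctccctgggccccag

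Most endothelial genes measured were called lower in both lines. Of 22 endothelial markers 19 (86.4%) were called lower and 0 higher, beside 4.23% and 3.74% of all genes. The list median was -1.77 (-1.96 in 66cl4 and -1.57 in 4T1). The mean log2 signal over the 22 markers was 8.67 to 9.02 in 67NR, 6.93 to 7.22 in 66cl4 and 7.40 to 7.59 in 4T1 tumours, and none of them was at background in any line. Cdh5, the cadherin of endothelial junctions, was at 9.76, 9.30 and 9.37 in 67NR, 7.23, 7.04 and 7.37 in 66cl4 and 7.33, 7.28 and 7.47 in 4T1 tumours. It fell by 2.26 ± 0.14 and 2.11 ± 0.14 (SE, limma joint adjusted p = 2.65e-05). Robo4, an endothelial guidance receptor, fell by 2.18 and 1.68 and the lectin gene Clec14a by 2.04 and 2.05. Flt1 (-1.40 and 0.73), Eng (-1.09 and 0.04) and Vwf (0.60 and 0.54) were not called. The count of 19 was the same in each fit without 1 array, but 8 with the hybridization controls and 7 with the scan file number, at medians of -1.65 and -1.63. Among the calls that ended with both covariates were those of Pecam1, Tie1, Plvap and Kdr.

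Among 15 markers of pericytes and smooth muscle, the mural cells of vessels, 7 (46.7%) were called lower and 0 higher. Over all genes 4.23% were called lower and 3.74% higher. The list median was -1.01. Kcnj8 and Abcc9, the subunits of the pericyte potassium channel, fell by 3.00 and 2.82 and by 2.81 and 2.95. Kcnj8 was at 9.70, 9.55 and 9.63 in 67NR and at 6.31 to 7.04 in all 6 metastatic tumours (limma joint adjusted p = 1.23e-05). The pericyte regulator gene Rgs5 fell by 2.43 and 3.52. Contractile genes such as Acta2 (-0.19 and 1.66) and Tagln (0.50 and 3.63) were not called. With the technical covariates 3 and 4 members were called lower. The mean log2 signal of the list was 8.09 to 8.21 in 67NR, 6.82 to 7.07 in 66cl4 and 7.11 to 7.62 in 4T1 tumours.

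Receptors and ligands of vessels, nerves and epithelium differed in the same tumours. Ligands were called higher for 2 of 39 and lower for 6, and receptors and their modulators for 2 and 8 of 46, beside 3.74% of all genes higher and 4.23% lower. The covariates left 2 ligands higher and 3 or 2 lower, and 1 receptor higher and 1 or 2 lower, with Fgfr1, Erbb2, Met, Kdr and Igfbp4 among the calls that ended with both. Vegfc, the growth factor of lymphatic vessels, was at 3.52, 3.87 and 4.12 in 67NR, 7.46, 7.23 and 8.04 in 66cl4 and 7.57, 8.97 and 9.45 in 4T1 tumours, at least 6.22-fold and 13.2-fold higher (limma joint adjusted p = 0.000575). Sema3e, a semaphorin that repels endothelial cells through plexin D1, was at least 24.8-fold higher in 66cl4 and 6.27-fold in 4T1, and its 3 other probe sets were called higher as well. Lymphatic endothelial markers were called higher for 0 of 6 and lower for 1, Pdpn, which encodes podoplanin and is also made by fibroblasts and tumour cells (-2.20 and -3.91). Its call ended with either covariate. The epidermal growth factor family ligand Btc fell by 1.92 and 1.87, while Erbb3, a receptor of that family, was higher by 1.31 and 1.81. Notch4 and Dll4, Notch genes of endothelium, fell by 2.53 and 2.22 and by 2.10 and 1.17. The call of Dll4 ended with the hybridization controls (adjusted p = 0.0718) and with the scan file number (0.0541). Of 24 Notch pathway genes 4 were lower and 1 higher, but either covariate left 1 lower and 0 higher, the calls of Notch3, Hey1 and Dtx4 ending as well.

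A few Wnt and TGF-beta genes were called. Wnt7b, a ligand of luminal mammary cells and macrophages, was at 6.94, 7.48 and 7.90 in 67NR, 9.81, 9.92 and 9.35 in 66cl4 and 10.93, 10.57 and 10.65 in 4T1 tumours. It was higher by 2.25 ± 0.23 and 3.28 ± 0.23 (SE, limma joint adjusted p = 0.000403). The receptor genes Fzd7 (1.06 and 2.37) and Fzd6 (2.00 and 3.36) were higher too, and Fzd6 lost its call with either covariate. The other Fzd7 probe set, above background on all 9 arrays, differed by 0.05 and 0.24. A further Fzd6 probe set was called higher (0.76 and 1.62), while another differed by 0.11 and -0.10. Of 43 Wnt pathway genes 4 were higher and 1, Fzd4, was lower until the hybridization controls were entered (adjusted p = 0.0809). With the covariates the Wnt list held 2 and 3 genes called higher and 1 called lower, which can include genes not called without them. Tgfb3, a TGF-beta ligand, was at 6.81 to 7.02 in 67NR and 8.73 to 9.30 in the other tumours, by 2.14 ± 0.14 and 2.08 ± 0.14 (SE, limma joint adjusted p = 3.57e-05). Of 40 genes of the TGF-beta and BMP pathways 4 were higher and 2 lower, beside 3.74% and 4.23% of all genes. The hybridization controls left 2 higher and 1 lower, and the scan file number 1 and 0, with Bmpr1a, Ltbp2 and Id1 losing their call with both and Fst and Smad1 with the scan file number.

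Epithelial genes were called higher in small numbers, and none was called lower. This held for 1 of 14 keratins, 2 of 28 junction genes and 3 of 21 epithelial regulators, beside 3.74% of all genes called higher, and the counts were the same with either covariate. Besides Krt8 and Pkp2 these were the tight junction gene Cgn (2.32 and 2.61), the transcription factor genes Klf5 (2.21 and 2.78) and Gata3 (1.43 and 2.22) and the protease inhibitor gene Spint2 (1.72 and 3.45). Gata3, a determinant of luminal mammary cells, was at 7.08, 7.25 and 7.06 in 67NR, 8.39, 8.53 and 8.77 in 66cl4 and 9.38, 9.30 and 9.37 in 4T1 tumours (limma joint adjusted p = 8.24e-05). Cdh1, encoding E-cadherin, was at 3.92 to 4.37 in 67NR, 4.00 to 4.45 in 66cl4 and 10.76 to 11.11 in 4T1 tumours. As defining markers of the labelled mammary tumours, Cdh1 was thus not above background in 67NR or 66cl4, and Krt8 was near 6.74 in 67NR.

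Of 23 transcription factors of the epithelial-mesenchymal transition 4 were called lower and 1 higher, beside 4.23% and 3.74% of all genes, with a median of -0.55. Either covariate left 1 lower and 0 higher. Msx2 was at least 2.04-fold lower in 66cl4 and 1.95-fold in 4T1, and Prrx1 fell by 1.61 and 1.81. Prrx2, chosen for mention after its values were seen, was at least 60.9-fold higher in 66cl4 but only at least 1.73-fold in 4T1. The calls of Prrx1, Prrx2, Ets1 and Id1 ended with either technical covariate. They also ended without 67NR replicate 2 for Prrx1 (0.061) and without 67NR replicate 3 for Ets1 (0.0557). That of Prrx2 ended without 67NR replicate 2 or 3 or 4T1 replicate 3 (0.0558 to 0.0927), and that of Id1 without any 1 array but 66cl4 replicate 1 (0.0677 to 0.161). The best-known drivers were not called, with Snai1 at -3.17 and -0.37, Snai2 at -0.71 and -1.76, Zeb1 at -0.05 and -1.90 and Twist1 at 0.17 and -0.55. Vim, the vimentin gene, was at 13.87 to 14.14 in all tumours, near the top of the signal range (-0.19 and -0.20, adjusted p = 0.368), and Cdh2, N-cadherin, differed by -1.0 and -6.34 (adjusted p = 0.215).

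Matrix genes were called in both directions, 5 of 46 higher and 7 lower, beside 3.74% and 4.23% of all genes. The hybridization controls left 3 higher and 1 lower and the scan file number 2 and 1, so the larger number changed side. Thbs2, encoding the matricellular protein thrombospondin 2, was at 5.31, 4.96 and 5.53 in 67NR, 8.89, 8.76 and 8.09 in 66cl4 and 9.31, 11.07 and 10.25 in 4T1 tumours (3.32 ± 0.38 and 4.94 ± 0.38, SE, limma joint adjusted p = 0.000767). Lum, the gene of the collagen-binding proteoglycan lumican, was higher by 3.10 and 3.63. The basement membrane chains Col4a1 and Col4a2 were lower, Col4a2 at 12.09 to 12.41 in 67NR and 10.19 to 10.84 in the other tumours (-1.81 ± 0.13 and -1.45 ± 0.13, SE). The calls of Col4a1, Lama2, Nid2 and Hspg2, further basement membrane genes, ended with either covariate, as did those of Col1a2 and Thbs1, which were higher, and of Fbln1 and Fbln5, which were lower. That of Hspg2 also ended without any 1 array but 4T1 replicates 1 and 3 (0.0628 to 0.145). Fibroblast markers were called both ways, 3 of 18 higher and 3 lower, of which either covariate left 1 and 1 (Col1a2, Islr, Dpt and Fbln1 ended), with a mean log2 signal of 8.01 to 8.42 in 67NR, 8.38 to 8.84 in 66cl4 and 8.62 to 9.60 in 4T1 tumours.

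Cell cycle inhibitors and p53 pathway genes were called lower for 5 of 25 and higher for 3, beside 4.23% and 3.74% of all genes, and either covariate left 3 lower and 0 higher. Cdkn2a, which encodes the tumour suppressors p16 and p19ARF from shared exons, was at 6.29, 6.90 and 6.68 in 67NR and at 3.69 to 4.09 in the other tumours, above background in none of them. It was at least 3.28-fold lower in 66cl4 and 3.14-fold in 4T1 (limma joint adjusted p = 1.35e-05). The p53 target Mdm2, whose product degrades p53, fell by 0.86 ± 0.09 and 1.07 ± 0.09, and the target Phlda3 by 1.46 ± 0.16 and 1.97 ± 0.16 (SE). Both held with either technical covariate, whereas the calls of Ccng1, Trp53inp1, Cdkn2c, Cdkn2d and Tnfrsf10b ended with each. Without 67NR replicate 2 those of Ccng1 (0.154), Trp53inp1 (0.108), Cdkn2d (0.0767) and Tnfrsf10b (0.126) ended as well, and each ended without at least 4 other single arrays, at 0.051 to 0.173. Proliferation genes were called higher for 2 of 32, Kif11 and Bub1, with a list median of 0.17. Bub1 lost its call with either covariate, and Kif11 with the scan file number. Without 67NR replicate 2 neither was called (0.11 and 0.055), and each call ended without at least 5 other single arrays (0.0504 to 0.165).

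Arg1, encoding the arginine-degrading arginase of suppressive myeloid cells, was the macrophage-list gene called higher. It was at 6.41, 6.94 and 6.44 in 67NR, 11.24, 12.17 and 10.13 in 66cl4 and 10.75, 12.60 and 12.90 in 4T1 tumours, higher by 4.58 ± 0.59 and 5.48 ± 0.59 (SE, limma joint adjusted p = 0.00141). The 6 metastatic tumours were uneven but all lay above 67NR, and the call ended with the scan file number (0.0739). Of 25 macrophage and monocyte markers 4 were lower, beside 4.23% of all genes and 0 with either covariate, among them Aif1 (-1.99 and -1.54) and Mpeg1 (-0.95 and -0.93), whose calls ended with either covariate. The mean log2 signal of the list was 10.02 to 10.16 in 67NR, 10.09 to 10.48 in 66cl4 and 9.17 to 9.39 in 4T1 tumours. T and NK cell markers were lower for 3 of 23, Cd4 (-1.36 and -1.29), Klrk1 and Klrd1. The covariates left 1 and 0 of them, Klrk1 and Klrd1 ending with both and Cd4 with the scan file number. Of 13 B and plasma cell markers 1 was lower and 0 higher, with either covariate as well. This was the B cell receptor modulator gene Cd22, which fell by 2.00 and 1.44. The list median was -0.22 in 66cl4 and -0.04 in 4T1. The mean log2 signal of the list was 6.42 to 6.88 in 67NR, 5.71 to 6.16 in 66cl4 and 5.92 to 7.56 in 4T1 tumours.

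Genes of interferon response and antigen presentation were called in neither direction, with 0 of 30 and 0 of 17. Over all genes 3.74% were called higher and 4.23% lower. Their medians lay on opposite sides of 0, at -0.91 and -1.63 in 66cl4 and at 0.81 and 0.62 in 4T1. Of 47 chemokines and cytokines 3 (6.38%) were higher and 3 (6.38%) lower, near those shares, and 0 and 0 with either covariate. Cxcl2, which attracts neutrophils, was at least 5.27-fold and 5.49-fold higher, and the alarmin gene Il33 was lower (-2.02 and -2.33). The call of Il33 also ended without 67NR replicate 1 or 66cl4 replicate 1 or 2 (0.0652 to 0.0731).

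Among 36 genes that the literature links to breast cancer metastasis, 0 were called higher and 4 lower, beside 3.74% and 4.23% of all genes, namely Ereg, Cxcr4, Met and Id1. Of these the call of Ereg held with both technical covariates and the others ended with each. Cxcr4 (0.0506), Met (0.108) and Id1 (0.108) were not called without 67NR replicate 2. Cxcr4 was not without 67NR replicate 1 (0.0552), nor Met without 67NR replicate 3, 66cl4 replicate 1 or 4T1 replicate 3 (0.0551 to 0.0952). Metastasis suppressor genes were called lower for Cst6 and Nme2 and higher for Gata3, of 30 measured. The call of Nme2 ended with either covariate and without replicate 2 or 3 of 67NR or 66cl4 (0.0526 to 0.0884). Of 31 genes in the list of Nrf2 targets, which includes the Nrf2 gene Nfe2l2 itself, 5 were lower and 2 higher. The counts were 2 and 0 with the hybridization controls and 0 and 0 with the scan file number. Gclm and Tkt, which were higher, and Gstm1, Cbr3 and Nfe2l2, which were lower, lost their call with both. Among the lower genes were the sulfiredoxin gene Srxn1 (-1.20 and -1.78) and the glutathione transferase gene Gstm5 (-0.87 and -1.60), both losing their call with the scan file number. In the milk and luminal list, Esr1, encoding estrogen receptor alpha, was higher by 1.99 and 1.27 and the kappa-casein gene Csn3 lower (-2.26 and -5.53), and either covariate ended both calls. Hoxa10 was the 1 of 32 Hox genes called, at least 4.26-fold and 3.93-fold higher. The adipocyte genes Fabp4 (-2.73 and -3.71) and Pparg (-1.78 and -2.01) were 2 of 15 lower, Pparg not with the scan file number.

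**Figure D4:**
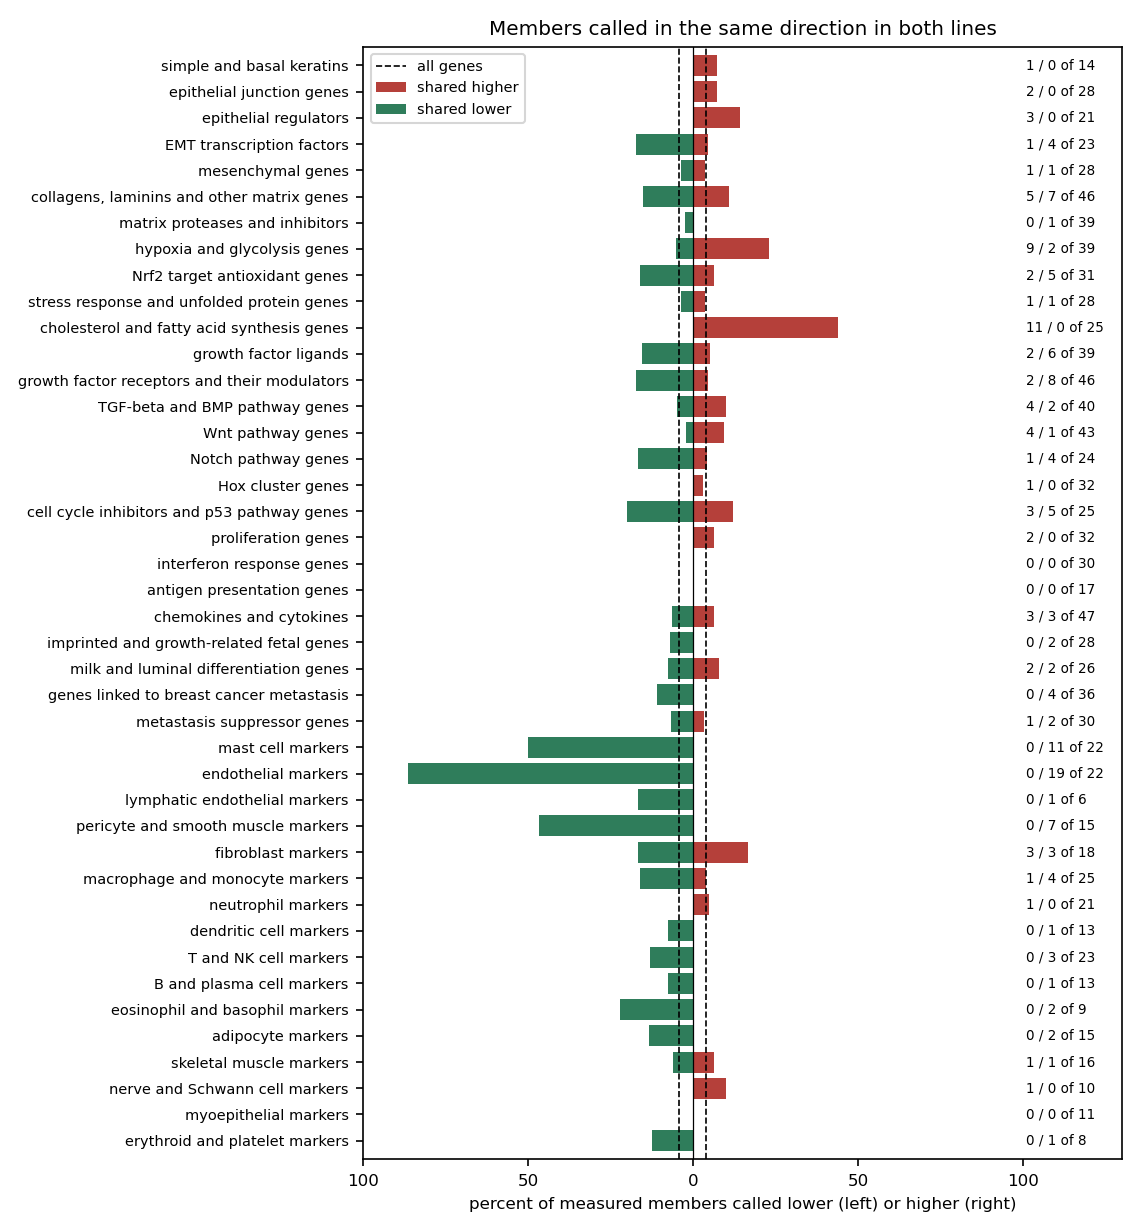
Percent of the measured members of each of 42 gene lists called lower (bars to the left) or higher (bars to the right) in both lines, with the counts at the right edge as higher / lower of measured; dashed lines mark the 4.23% and 3.74% of all genes called lower and higher. The longest bars are those of endothelial markers (86.4% lower), mast cell markers (11 of 22 lower), pericyte markers (46.7% lower) and cholesterol and fatty acid synthesis genes (44.0% higher).

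Called genes were spread unevenly over the chromosomes, in a description chosen after the data were seen. Over 10628 genes with a mean log2 signal of at least 6, 6.05% were called higher and 5.22% lower. On chromosome X 70 of 288 genes (24.3%) were higher and 7 lower, with a median difference of 0.48 in 66cl4 and 0.30 in 4T1, and on chromosome 8 92 of 579 (15.9%) were higher. On chromosome 10 91 of 516 genes (17.6%) were lower, with medians of -0.28 and -0.31. By array, the chromosome X median was 0.46, 0.50 and 0.50 in 66cl4 and 0.31, 0.32 and 0.28 in 4T1 tumours, against -0.01 to 0.01 in 67NR. The chromosome 10 median was -0.27, -0.27 and -0.28 in 66cl4 and -0.28, -0.28 and -0.34 in 4T1. Neither chromosome overlapped between 67NR and the other lines, but the same held for chromosomes 8, 9, 11, 14, 15 and 19. Deviations were taken from the mean of the 67NR arrays, which places those arrays near 0 on every chromosome. Along chromosome 10, genes of the first of 5 equal parts in map order had medians of 0.10 and 0.01 and those of the last -0.36 and -0.50. Entering the scan file number gave medians of 0.51 and 0.39 on X and -0.25 and -0.25 on chromosome 10, while the calls there fell to 24 higher and 13 lower. Copy number was not measured.

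**Figure D5:**
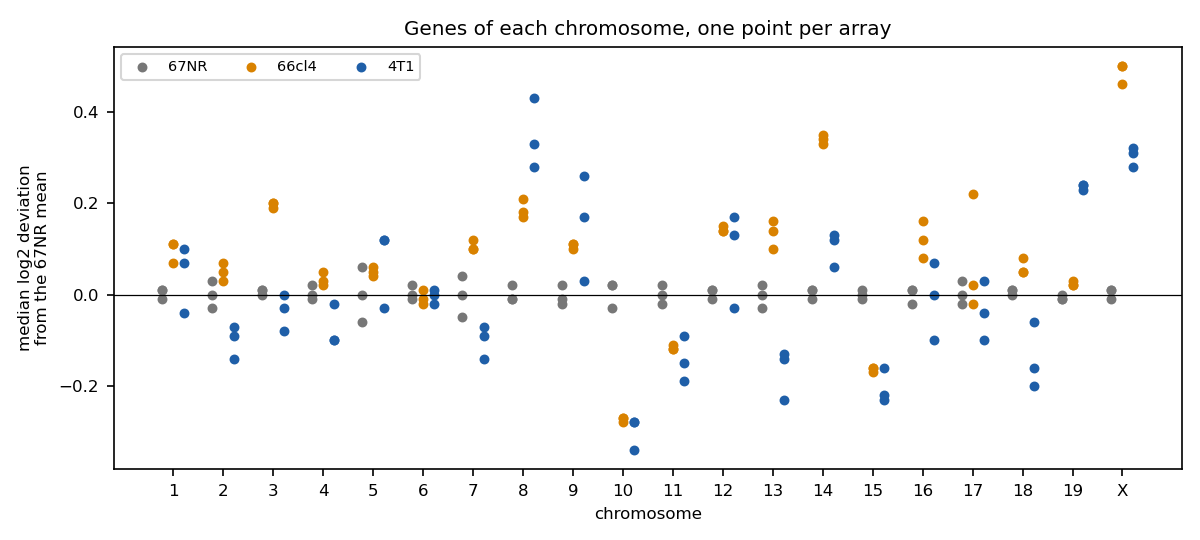
Median deviation of the genes of each chromosome from their 67NR mean (y axis, log2), 1 point per array, for genes with a mean log2 signal of at least 6. On chromosome X all 6 metastatic tumours lie at 0.28 to 0.50 and on chromosome 10 at -0.34 to -0.27, apart from 67NR in both. They also lie apart from 67NR in the same direction on chromosomes 8, 9, 11, 14, 15 and 19, while on chromosome 13 the lines lie on opposite sides of 0.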

How the data were processed

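RNA of laser-captured tumour areas was hybridised to single-colour Affymetrix mouse arrays, 1 per mouse, 3 mice per line. Each array has, as deposited by the authors, 1 log2 value for every probe set. The log2 scale was read from the values (2.42 to 14.8), and the probe summary and array normalisation are not stated in the labels used here, so no further scaling was applied. Of 45101 probe sets 64 were array controls. One symbol was annotated to 34958, several to 932 and none to 9211, and 34754 symbols matched RefSeq's GRCm38.p6 gene table. The 18193 genes, 9010 with several probe sets, each took the values of their brightest probe set on average. No build is stated for the array, so the table served for names, chromosomes and gene order. Promoter windows are RefSeq's.

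Linear models over all 9 arrays were fitted with lmFit and eBayes (limma 3.58.1, R 4.3.3; 6 residual and 3.87 prior degrees of freedom), checked on simulated data. The joint p was the larger of both two-sided p-values where signs agreed and 1 otherwise, with Benjamini-Hochberg adjustment over 45037 probe sets. A bound sets the brighter group's mean against the mean of the highest of 27 background controls per array. Named genes were the 15 farthest from 67NR in each direction and up to 3 called members of each list with the smallest joint p. A set of epithelial-mesenchymal transition genes was named regardless of outcome. The 15 were ranked by the smaller of both differences. Only called genes with all 6 metastatic arrays on the same side of all 3 67NR arrays entered that ranking. Symbols of the Rik, Gm or LOC type were passed over. Other list members were named after their values were seen. The members and the 42 lists, with 1062 genes of which 976 were measured, were chosen with earlier results of these data known. Alternatives were quantile normalization, a filter on low signals, an intensity trend, the mean of probe sets, a replicate block, technical covariates, pooling both lines, and each array left out.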

Additional observations from a re-analysis of the deposited data

Results flagged for a closer look

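For 37 of the named genes the 4T1 and 66cl4 tumours differed from each other by limma's contrast of 4T1 with 66cl4 (adjusted p under 0.05), so the size of the difference from 67NR was not the same in both lines. Values are 4T1 minus 66cl4 on the log2 scale.

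Genes called higher than 67NR in both lines and higher still in 4T1 were Krt8 (0.47), Cxadr (1.90), Ak4 (0.75), Gata3 (0.78), Spint2 (1.74), Thbs2 (1.62), Pgk1 (0.56), Hmgcs1 (0.47), Wnt7b (1.03), Fzd7 (1.31) and Fzd6 (1.36). Higher in both lines but closer to 67NR in 4T1 were Gzmd (-3.69), Gzme (-2.53), Sema3e (-1.98) and Esr1 (-0.72).

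Genes called lower in both lines and lower still in 4T1 were Cpa3 (-1.24), Ddr2 (-1.07), Gstm5 (-0.73), Srxn1 (-0.58), Csn3 (-3.27), Pdpn (-1.71) and Cd34 (-0.97). Lower in both lines but closer to 67NR in 4T1 were Acpp (1.10), Ets1 (0.45), Adamts9 (0.88), Kdr (0.73), Dll4 (0.93), Mest (1.45), Robo4 (0.50) and Mcam (0.98).

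Genes of the epithelial-mesenchymal transition that were not called in both lines differed between them in Krt18 (7.92), Cdh2 (-5.33), Snai1 (2.81), Zeb1 (-1.85), Snai2 (-1.05) and Twist1 (-0.72). Cdh1 was above background on no 66cl4 array, so its value (6.65) is set against a signal at background and gives no exact size.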

How the results depend on the processing

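Among the alternatives run, no called named gene changed direction. The hybridization controls as a covariate left 346 probe sets higher and 359 lower (211 and 228 genes), and the scan file number left 378 and 347 (216 and 213 genes). Requiring both log2 differences to be at least 1 in size left 375 and 585 probe sets (227 and 353 genes). Leaving out 1 array at a time gave 712 to 1226 probe sets higher, 883 to 1210 lower and 420 to 710 genes higher, with the lowest counts without 67NR replicate 2. A replicate block gave 1006 probe sets higher and 1177 lower (571 and 678 genes). Same-numbered samples correlated at -0.1211 to 0.1513 in their deviations from the line means, and differently numbered samples at -0.1989 to 0.1879. No pairing by number was seen in these correlations. Quantile normalization, the intensity trend, the filter on low signals, the mean of probe sets, and pooling both lines kept the counts over all probe sets and genes within 1.5 times, while counts of small lists moved more. The mean of probe sets moved the difference of 26 called named genes by over 1.5 times and ended 1 call. The cause of the lost calls was not tested. The 3 arrays per line and signals near background limit what small differences can be told.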

Other observations

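On chromosome 17 the median deviation of genes from their 67NR mean was 0.22 on the array of 66cl4 replicate 2, against 0.02 and -0.02 on the other 66cl4 arrays and -0.10 to 0.03 on the 4T1 arrays.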
